A study of Mus musculus with 7 samples.

Results

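Semaphorins, plexins, ephrins, Eph receptors, Slits, Robos, netrins and netrin receptors are the guidance cues and receptors that steer growing axons and growing vessels. Their peaks of open chromatin were described here in mouse retinal endothelial cells. Members were chosen by gene symbol, with no measured value: protein-coding genes on the 19 autosomes with symbols starting Sema, Plxn, Epha, Ephb, Efna or Efnb, with Slit1 to Slit3, Robo1 to Robo3, Unc5a, Unc5c, Unc5d, Ntn1, Ntn4 and Dcc, and without Ephb4. This gave 59 of the 20807 autosomal protein-coding genes of GENCODE release M21: 20 semaphorins, 7 plexins, 13 Eph receptors, 7 ephrins, 3 Slits, 3 Robos, 2 netrins and 4 netrin receptors. Members on chromosome X were outside the rule.

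Semaphorins signal through plexins, and most class 3 semaphorins also need a neuropilin. Ephrins are bound to the membrane and signal into both the cell that carries them and the cell that carries the Eph receptor. Slits bind Robos, and netrins bind Dcc and the Unc5 receptors. In vessels, the ephrin Efnb2 marks arterial endothelium, and Sema3e acting on Plxnd1 shapes the growing vessel front of the retina.

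The cells came from FUCCI reporter mice at postnatal day 6; this reporter colours cells by cell cycle phase. Living CD31-positive, CD45-negative retinal cells were sorted into unlabelled cells, called early G1 (3 libraries), and red cells, called late G1 (4 libraries), and open chromatin was tagged with a transposase (ATAC-seq). The labels name no promoter for the reporter and do not say whether libraries came from separate animals. The libraries of a group were pooled before peaks were called, which leaves 1 list each for early and late G1. Values below therefore come without replicate error, and no difference between the lists was tested.

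The early pool held 137191808 fragments and the late pool 124693948. The early list was broader: it covered 43.1% of the sequenced autosomes in rows with a median width of 1363 bp, against 13.9% and 688 bp in the late list. This difference in breadth bears on every early-only call below, and phase and pool cannot be told apart. Markers of several cell types carried promoter peaks, against 65.7% of all genes with one in both lists. Of 15 endothelial markers, 8 had promoter peaks at both stages, 4 were early only, 2 late only and 1 had none. Over all genes 28.4% were early only, 2.75% late only and 3.1% had none. Both lists had a promoter peak for 7 of 12 retinal neuron markers, 6 of 10 progenitor and Müller glia markers and 3 of 5 astrocyte markers. The same held for 4 of 8 pericyte and smooth muscle markers and 3 of 8 leukocyte and microglia markers. Every marker of these other types had an early promoter peak. Of the endothelial markers 12 of 15 (80%) had one, against 94.2% of all genes. The share of other cells in the sort was not tested.

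Sequences of 3 start regions and 3 peaks show what these calls rest on. The first 3 are the 200 bases upstream of the annotated 5′ end of Plxnd1, Efnb2 and Sema3g, printed 5′ to 3′ on the strand of the gene (mm10). Capitals mark words that match a transcription factor motif, and a run of capitals can join overlapping words. They stand for a start covered in both lists more widely in the late one (Plxnd1, chr6:115995006-115995205, minus strand), a start covered in both (Efnb2, chr8:8661243-8661442, minus strand) and a start covered in the early list only (Sema3g, chr14:31217660-31217859, plus strand).
Plxnd1: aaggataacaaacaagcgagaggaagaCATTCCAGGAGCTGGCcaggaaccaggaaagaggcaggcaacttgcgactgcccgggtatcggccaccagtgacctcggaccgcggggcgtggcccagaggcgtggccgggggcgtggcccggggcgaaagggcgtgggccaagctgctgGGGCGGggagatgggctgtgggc
Efnb2: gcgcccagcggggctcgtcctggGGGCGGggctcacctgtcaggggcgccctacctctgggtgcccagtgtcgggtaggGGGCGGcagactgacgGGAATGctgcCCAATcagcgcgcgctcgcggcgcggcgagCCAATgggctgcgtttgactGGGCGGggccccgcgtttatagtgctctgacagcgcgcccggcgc
Sema3g: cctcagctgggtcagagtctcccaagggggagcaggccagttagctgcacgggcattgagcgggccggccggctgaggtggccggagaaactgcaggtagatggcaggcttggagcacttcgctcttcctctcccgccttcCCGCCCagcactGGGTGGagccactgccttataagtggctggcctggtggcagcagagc
The Efnb2 stretch held 24 CpG dinucleotides and 6 matches, 3 of them GC boxes. The Plxnd1 stretch held 15 CpGs and 1 GC box, with a TEAD word that overlaps a CTCF word. The Sema3g stretch held 8 CpGs, 1 GC box and 1 KLF word. Early rows covered all 200 bases of each stretch, while late rows covered 200 in Plxnd1, 152 in Efnb2 and 0 in Sema3g.

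The other 3 sequences are the central 300 bases of the member peaks with the highest pileup, the mean number of fragments over a peak, on the plus strand. They are the highest of the late list (Sema5b, chr16:35543490-35543789), the highest of a vascular member in the late list (Robo1, chr16:72856771-72857070) and the highest of the early list (Ntn4, chr10:93727160-93727459).
Sema5b: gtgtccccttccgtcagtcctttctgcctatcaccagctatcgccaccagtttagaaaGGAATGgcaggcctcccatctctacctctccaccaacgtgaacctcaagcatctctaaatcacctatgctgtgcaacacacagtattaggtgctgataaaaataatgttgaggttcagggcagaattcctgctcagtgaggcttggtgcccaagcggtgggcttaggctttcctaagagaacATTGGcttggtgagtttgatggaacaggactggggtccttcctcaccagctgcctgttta
Robo1: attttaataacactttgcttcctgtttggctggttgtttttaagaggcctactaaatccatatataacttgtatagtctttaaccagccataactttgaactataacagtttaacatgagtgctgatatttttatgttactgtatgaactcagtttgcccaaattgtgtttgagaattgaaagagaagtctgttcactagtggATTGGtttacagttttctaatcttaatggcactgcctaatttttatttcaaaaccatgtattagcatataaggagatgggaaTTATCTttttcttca
Ntn4: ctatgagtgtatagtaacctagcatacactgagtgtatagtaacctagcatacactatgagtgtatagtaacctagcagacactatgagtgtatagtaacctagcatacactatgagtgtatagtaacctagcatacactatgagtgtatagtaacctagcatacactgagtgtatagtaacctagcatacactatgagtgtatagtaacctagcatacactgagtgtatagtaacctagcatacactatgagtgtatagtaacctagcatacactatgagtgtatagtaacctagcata
The Ntn4 sequence is a tandem array: 78.3% of its bases were identical to the base 28 positions further on. The best such value was 36.2% for the Robo1 peak and 32.7% for the Sema5b peak. The assembly marks none of the Ntn4 peak as repeat, and how reads from such an array map was not tested.

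All 59 members had a promoter peak, any overlap with the window within 1 kb of a protein-coding start site, in the early list, and 43 of them had one in the late list as well. The other 16 were early only, and none was late only or without a peak. An early promoter peak was present in 94.2% of all autosomal protein-coding genes and a late one in 68.5%. Split by state, 65.7% of all genes had both, 28.4% were early only, 2.75% late only and 3.1% without a peak, so the members' 72.9% and 27.1% lay near the background. Among genes with a span of at least 50 kb, 74.2% of 31 members were in both lists, against 75.4% of all such genes. The early-only shares at that span were 25.8% and 21.3%, farther apart than over all spans. The 16 early-only members were the semaphorins Sema3e, Sema3g, Sema4f, Sema5b and Sema6c, the plexins Plxna4 and Plxnb2, the Eph receptors Epha3, Epha6 and Epha10, the ephrins Efna1, Efna2, Efna5 and Efnb3, the netrin Ntn4 and the netrin receptor Unc5c. Ephrins were early only in 4 of 7 cases, against 3 of 13 Eph receptors and none of the 6 Slits and Robos. The median span was 9.41 kb in ephrins, 147.9 kb in Eph receptors, 324.6 kb in Slits and 520 kb in Robos. Over all genes under 50 kb 30.6% were early only, so span and family cannot be told apart here.

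The promoter calls turned on the breadth of the early list. When the early rows with the best scores were kept only until they covered as many autosomal bases as the late list, 27 members had both promoter peaks, 4 were early only, 16 late only and 12 had none. This setting was chosen after seeing the data. The same shares over all genes were 35.6%, 11.9%, 32.9% and 19.7%. Of the 16 early-only members, Efna1, Epha6, Plxna4 and Sema6c stayed early only and the other 12 had no peak in either list. The 16 late-only members came from the 43 with peaks in both, among them Epha2, Epha4, Ephb2, Ntn1, Plxna2, Sema3a and Slit3. Only early rows were removed and the late list was unchanged. A member could therefore move only from both to late only, or from early only to no peak.

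**Figure D1:**
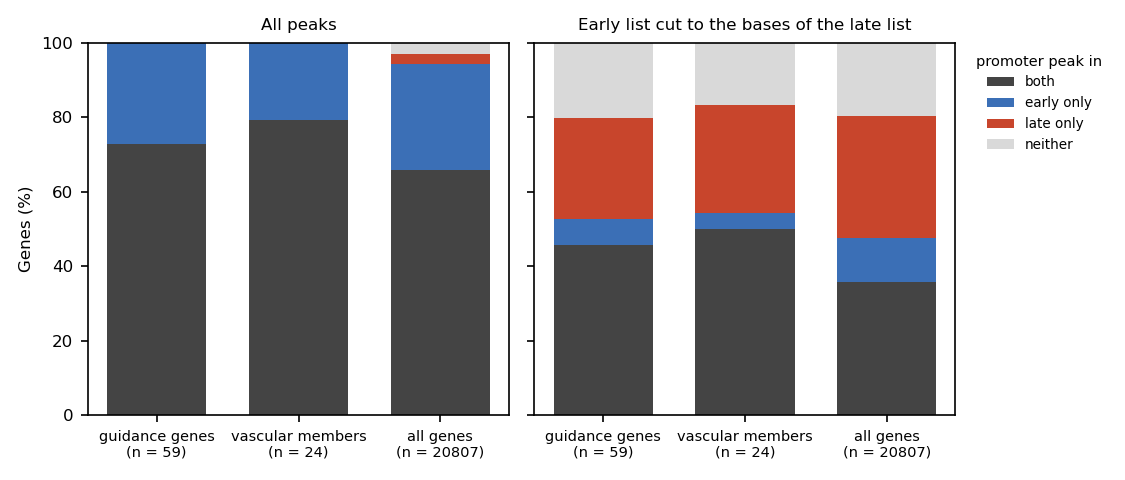
Percent of genes by promoter state, for 59 guidance genes, the 24 vascular members and all 20807 autosomal protein-coding genes; bars are stacked shares with no replicate error. With all peaks no member is late only, against 2.75% of all genes. With the early list cut to the bases of the late list 27.1% of members are, against 32.9% of all genes.

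At the 5′ end itself the members lay near all genes in the early list and below them in the late list. Just downstream they lay above all genes in both lists. In the early list 40 of 59 members (67.8%) were covered at the 5′ end, against 63.9% of all genes. In the late list 15 members (25.4%) were, against 33.1%. At 10 kb upstream the members stood at 44.1% in the early and 13.6% in the late list, and all genes at 44.5% and 14.8%. From 250 to 3000 bp downstream the members exceeded all genes at each of 12 steps in both lists, by 7.67 to 15.3 percentage points in the early and 0.55 to 11.02 in the late list. At 250 bp, where the members were highest, 74.6% were covered in the early and 33.9% in the late list, against 63.2% and 30.5% of all genes. At 750 bp these shares were 71.2% and 32.2%, against 55.9% and 22.2%. The stretch was chosen after the profile was seen, and neighbouring steps share genes and peaks. With covered bases matched, the early members still exceeded all genes at the 12 steps, by 2.91 to 12.04 points. Averaged over the steps, members with an observed over expected CpG ratio over 0.6 in the start window had 69.3% early coverage against 51.7% of all such genes, and 20.3% against 20.4% in the late list. Members with a lower ratio had 50% against 48.5% in the early list and 27.5% against 17.5% in the late list. At the 5′ end itself, late rows covered 31.25% of members with the higher ratio, against 49.2% of all such genes. With the lower ratio these shares were 18.5% and 24.5%. Of the vascular members 8 of 24 (33.3%) were covered at the 5′ end in the late list, and of the other members 7 of 35 (20.0%).

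**Figure D2:**
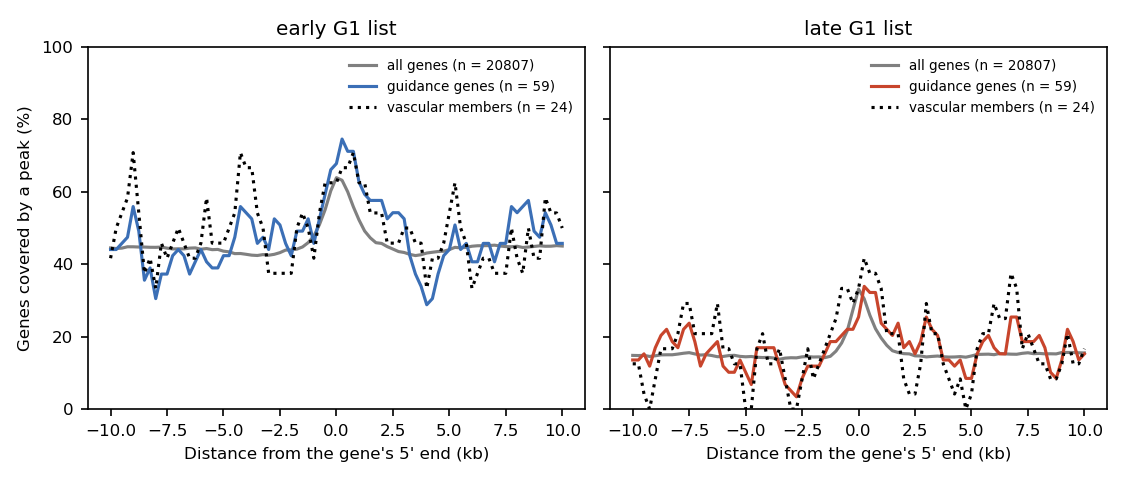
Percent of genes covered by a peak at each distance from the annotated 5′ end, in steps of 250 bp, for each list; lines are the guidance genes (n = 59), their vascular members (n = 24) and all genes (n = 20807). The members are highest at 250 bp downstream, at 74.6% in the early and 33.9% in the late list, and lie above all genes from there to 3000 bp; 1 gene is 1.69% of the members.

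The start window of a gene, the 2001 bases centred on its 5′ end, was covered by early rows at a median of 64.1% over the members and by late rows at 19.04%. Medians over all genes were 58.3% and 16.3%. With covered bases matched, the early median was 0 for the members and for all genes and the late medians were as before, so the order of the lists turned. Early rows covered the whole window in 14 members and late rows in 1, Plxnd1, while 19.1% and 1.82% of all genes were covered whole. Late rows touched no base of it in 23 members, against 40% of all genes, and early rows in 3, against 8.85%. Late coverage exceeded early coverage in 7 members (11.9%), against 17.7% of all genes. Those 7 were Plxnd1, Plxnb1, Ephb2, Efna3, Sema4g, Robo1 and Ntn1. With covered bases matched the number was 22 (37.3%), against 39.9% of all genes.

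**Figure D3:**
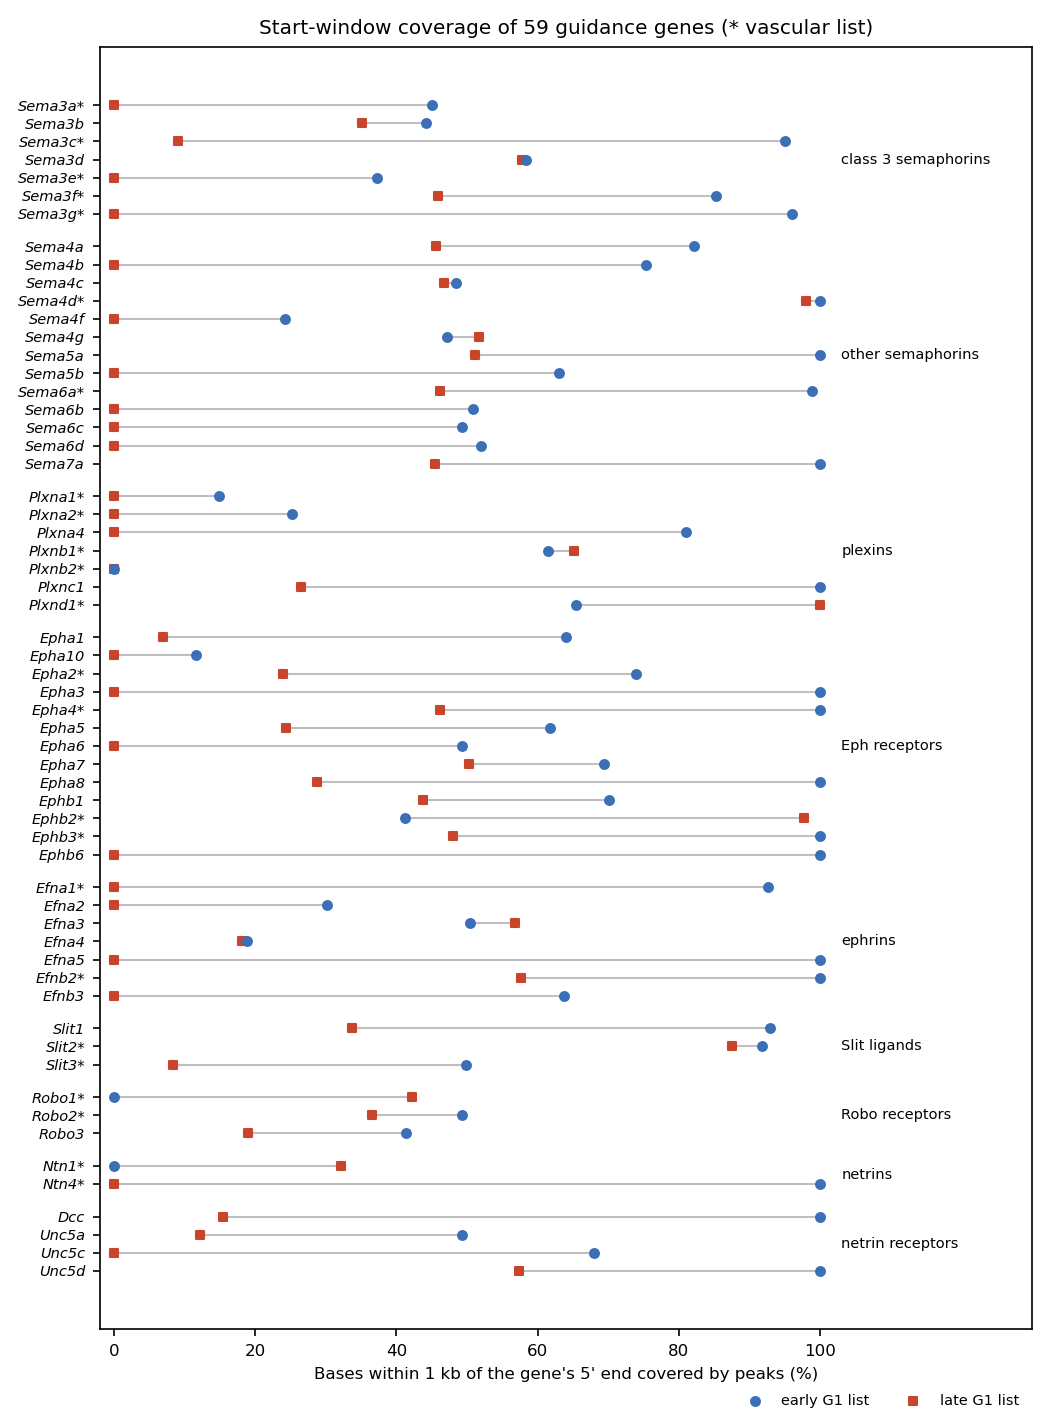
Percent of the bases within 1 kb of the 5′ end covered by peaks in the early (circles) and late (squares) list for each of the 59 members, grouped by family, with the vascular list starred; each point is 1 pooled list. Late squares lie to the right of early circles in 7 members, and 23 late squares lie at 0.

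Among ephrins and Eph receptors of vessels, Efnb2 and Ephb3 had start peaks in both lists. With covered bases matched, early coverage of the start window stayed full for Efnb2 and fell to 0 for Ephb3. Ephb3 still had an early promoter peak then, at another annotated start site. Efnb2, the arterial ephrin (chromosome 8, 8617434 to 8661242), was covered over 100% of its start window by early rows and 57.6% by late rows. Its start peak had a pileup of 35.7 and a fold of 2.36 over local background in the early list, and 69.7 and 4.06 in the late list. Ephb3, a receptor for B-type ephrins, had 100% and 48.0%, and its late start peak reached a pileup of 101.5. Ephb2, of the same class, had 41.2% in the early and 97.8% in the late list, with a late start peak 2210 bp wide at a pileup of only 26.0.

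Efna1, an ephrin induced in inflamed endothelium, had 92.6% early coverage and none in the late list. The nearest late row lay 2639 bp from its 5′ end. Its receptor Epha2 had 74.0% and 23.9%, and Epha4, a receptor for both ephrin classes, 100% and 46.2%. The ligand therefore lacked a late start peak where both receptors had one.

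Plxnd1, the plexin of endothelium that binds Sema3e (chromosome 6, 115954811 to 115995005), had early rows over 65.4% of its window and late rows over 100%. The late start peak was 2310 bp wide with a pileup of 27.9 and a fold of 2.15, so it was broad and low within its list, whose median pileup was 51.2. Sema3e itself had 37.3% early and no late coverage, with a late row 1006 bp from the 5′ end, just outside the window. Sema3g, a class 3 semaphorin of arterial endothelium, had 96.0% and 0, and its strongest late peak lay 7.99 kb upstream at a pileup of 201.4 and a fold of 15.8. The region of Sema3g also holds the start of Tnnc1, so this peak cannot be assigned to 1 gene.

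The other semaphorins of the vascular list differed among themselves. Sema3f, which acts through neuropilin 2, had 85.2% and 45.9% of its window covered. Sema3c, a ligand of vessel remodelling, had 95.0% and 9.10%; its late start peak was narrow, at 476 bp, with a pileup of 147.5 and a fold of 13.2. Sema3a, the classical axon repellent, had 45.1% and 0 at its 5′ end, and its late promoter peak came from another of its 5 start sites. Of the transmembrane semaphorins, Sema4d had the most complete pair, at 100% and 98.0%, with a late start peak 3196 bp wide at a pileup of 152.1. Early coverage of the Sema4d start window was 0 once covered bases were matched, as it was for Epha2, Epha4 and Ephb2. Plxnd1, Plxnb1, Sema3c, Sema3f, Sema6a, Slit2 and Robo2 kept theirs. Sema4d still had an early promoter peak then, at another annotated start site, whereas Epha2, Epha4 and Ephb2 had none. Plxnb1, the receptor of Sema4d, had 61.4% and 65.2%. Sema6a, a transmembrane semaphorin that binds A-type plexins, had 98.8% and 46.1%.

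Other plexins of the vascular list were sparse at the annotated start. Plxna1 had 14.9% early and no late coverage and Plxna2 25.3% and none, although both had a promoter peak in each list. For Plxna2 the nearest late row lay 1147 bp from the 5′ end of the gene and met the window of its protein-coding start site, which lies elsewhere. Plxnb2 had no coverage of its start window in either list, and its early promoter peak lay at another annotated start site.

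Slit2, the Slit that acts on Robo1 and Robo2 in retinal vessels, was covered over 91.7% of its window in the early and 87.6% in the late list. Its late start peak was 1892 bp wide with a pileup of 26.2. Slit3 had 49.9% and 8.45%. Robo1 had 0 and 42.2% at its annotated 5′ end, with a late start peak of 1600 bp at a pileup of 98.8 and a fold of 7.89, and Robo2 had 49.2% and 36.5%. With only the 5′ end of each gene used, 34 members had peaks in both lists (all genes 56.1%), 22 were early only (all genes 35.1%), Robo1 and Ntn1 were late only (all genes 3.93%) and Plxnb2 had none (all genes 4.92%).

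Ntn1, the netrin of the optic disc, had 0 and 32.2%, and its late start peak had a pileup of 45.5. Ntn4, a netrin of basement membranes, was the reverse, at 100% and 0, with the nearest late row 5882 bp from its 5′ end. Promoter peaks were thus present at both stages in 19 of the 24 vascular members (79.2%, all genes 65.7%). They were present at the early stage only in 5 (20.8%, all genes 28.4%). The early-only ones were Efna1, Ntn4, Plxnb2, Sema3e and Sema3g, and none of them but Efna1 kept its early peak when covered bases were matched.

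**Figure D4:**
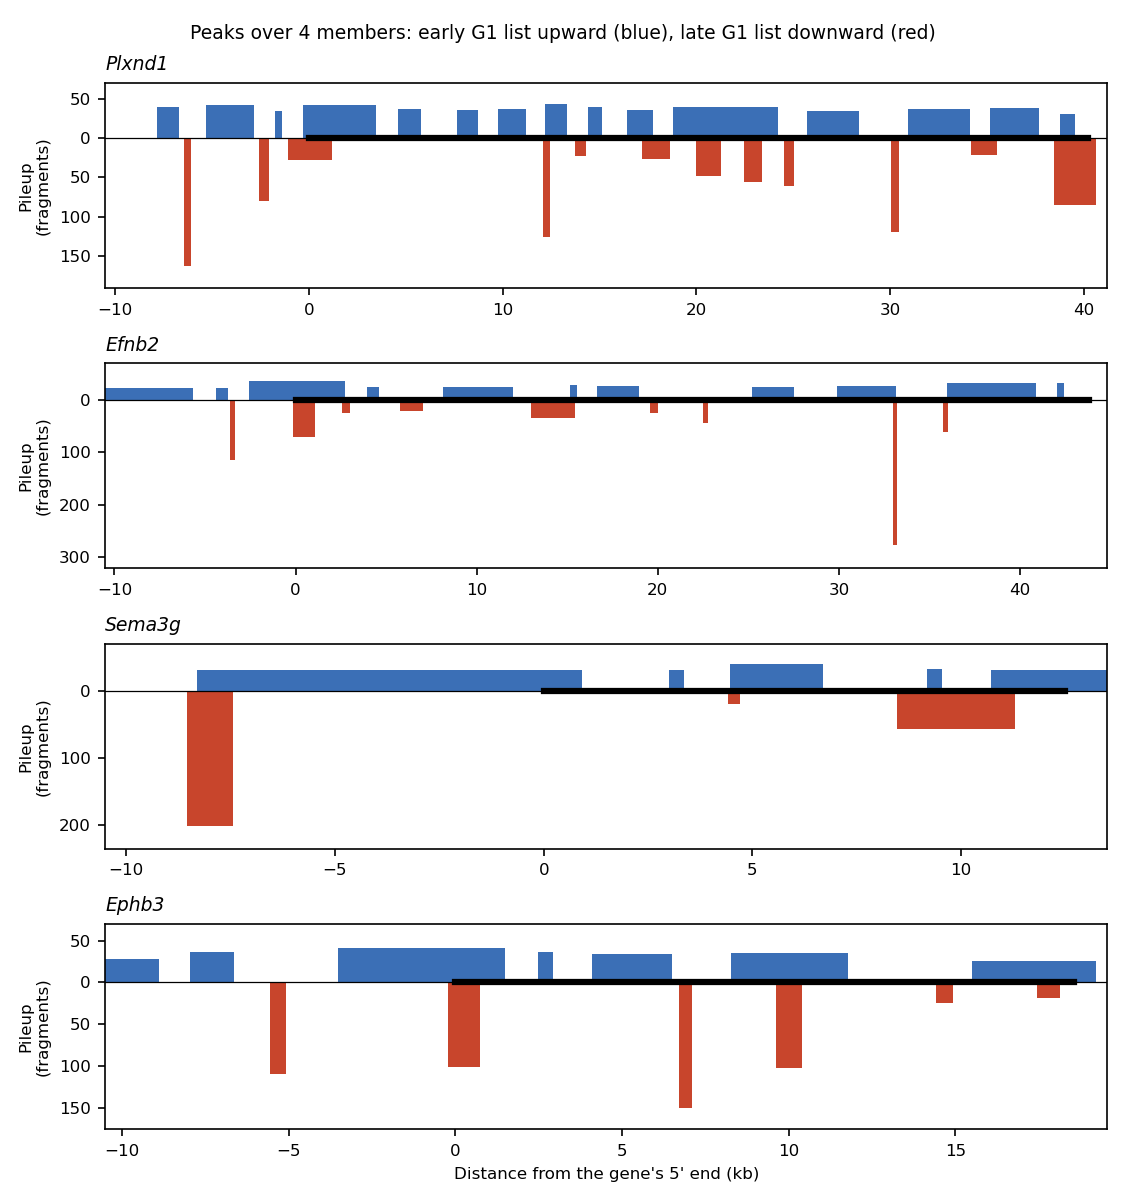
Peaks over Plxnd1, Efnb2, Sema3g and Ephb3 by distance from the 5′ end, with the gene body as a black bar; each block is 1 peak, its height the deposited pileup, early list upward and late list downward. The late start peak of Plxnd1, at a pileup of 27.9, is lower than the 58.4 of its median late peak, and Sema3g has no late peak within 1 kb of its start.

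Members outside the vascular list had promoter peaks at both stages in 24 of 35 cases (68.6%), against 79.2% of the vascular members. Over all genes the share was 65.7%, and 75.4% among those of at least 50 kb. The vascular members were longer, with a median span of 120.7 kb against 39.7 kb, so span and list cannot be told apart here. Dcc, the netrin receptor that attracts axons, had 100% early and 15.4% late coverage of its window, and Unc5d, a receptor that mediates repulsion, 100% and 57.4%. Unc5c had 68.0% and 0, with the nearest late row 12060 bp away, the farthest of the 16 early-only members. Epha3, Efna5 and Ephb6 had 100% of the window covered in the early list and none in the late list. Efna3 had 50.4% and 56.8%. Efna3 and its neighbour Efna4, which had 18.8% and 18.1%, lie 10.4 kb apart on chromosome 3. Sema7a, a membrane-anchored semaphorin, and its receptor Plxnc1 both had 100% early coverage, with 45.5% and 26.5% in the late list.

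Across gene body and 10 kb upstream the members were covered much as other genes were. The median was 48.5% in the early list (range 29.2 to 65.5) and 16.0% in the late list (2.54 to 25.3), and over all genes it was 45.9% and 14.8%. Early rows over the members numbered 2865 and late rows 1774. Coverage of each list was divided by the share of the autosomes it covers, 0.5 percentage points having been added to each gene's coverage, and late was set over early on the log2 scale. The median of this log2 relative coverage was 0.056 over the members and 0.062 over all genes, and 33 members (55.9%) lay above 0, against 54.4% of all genes. No member passed 1 in the late direction, against 7.32% of all genes. Past -1 in the early direction were 2 members, Sema4f and Sema6c, or 3.39%, against 9.87% of all genes. Among genes of at least 50 kb these shares were 0.54% and 1.86%, and no member of that length passed either.

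Sema4f, a transmembrane semaphorin, had 48.5% early and 2.54% late coverage, a log2 relative coverage of -2.38, with 13 early rows and 3 late rows. The start of another gene, M1ap, lies in its region. Sema6c had 33.1% and 3.79% (-1.34), with 5 early and 2 late rows. Next toward early were Sema3c (-0.69), Ephb6 (-0.49) and Ephb3 (-0.47). Toward late the members were Sema4g (0.92), with 30.5% and 18.5%, then Efnb3 (0.72), Efna4 (0.65), Sema3b (0.64) and Sema3d (0.51). Except for Sema3d, these were short genes of at most 14.3 kb with 3 to 5 rows in the late list, so each ratio rests on few peaks.

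**Figure D5:**
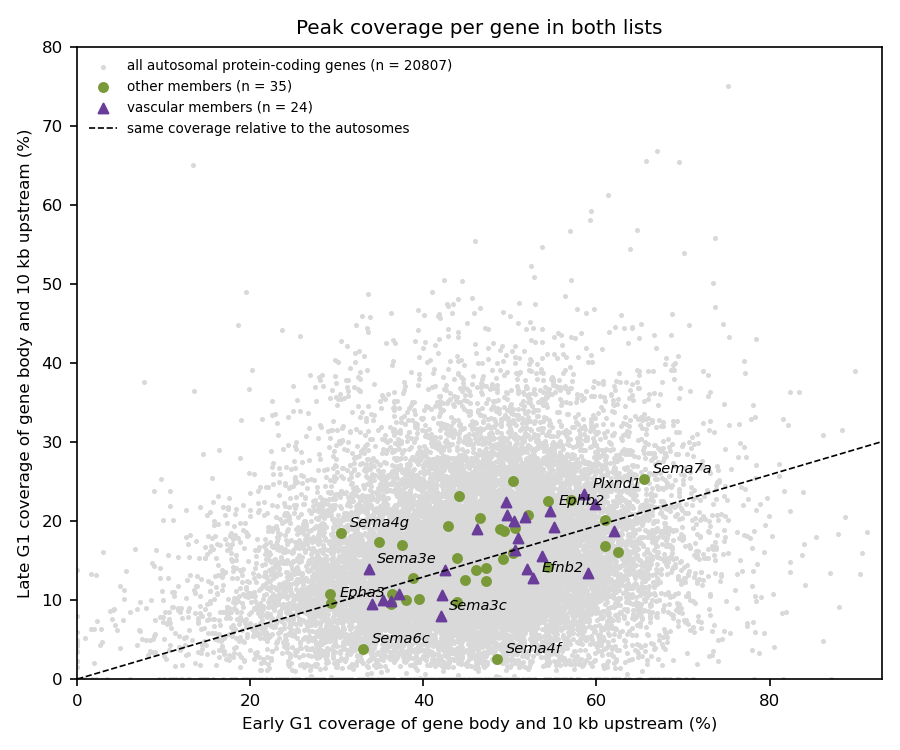
Late against early peak coverage (%) of gene body and 10 kb upstream, 1 point per gene, for 24 vascular members (triangles), 35 other members (circles) and all genes (grey); the dashed line marks equal coverage relative to the share of the autosomes each list covers. Members lie within the cloud of all genes, and Sema4f, at 48.5% and 2.54%, is the farthest below the line.

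By family, plexins had 6 of 7 members above 0 and a median of 0.33. Over all genes 54.4% lay above 0, with a median of 0.062. The families are small, so such counts rest on few genes. Plxna2 stood at 0.50, Plxna1 at 0.39, Plxnd1 at 0.33 and Plxnc1 at -0.04. The 3 Robos were all below 0, from -0.30 in Robo1 and Robo3 to -0.13 in Robo2, and so were Ntn1 (-0.12) and Ntn4 (-0.23). Class 3 semaphorins ran from -0.69 to 0.64. Ligands had a median of 0.06 and receptors of 0.0041. Among vascular members Efnb2 stood at -0.37 and Sema3e at 0.38.

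Long members were less covered than short ones. The 31 members of at least 50 kb had medians of 46.1% early and 13.9% late, and the 28 shorter ones 50.4% and 18.6%. Over all genes these medians were 44.8% and 14.0% for long genes and 46.4% and 15.2% for short ones. The least covered in the early list were Epha5 (29.2%) and Epha3 (29.4%), Eph receptors of 362.6 and 320.6 kb. In the late list Sema3c (8.01%), of 156 kb, was the least covered of the long members.

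The strongest peaks of the members lay mostly in introns, as did 88.6% of early and 87.4% of late rows over members. In the late list the strongest peak was in an intron in 40 members, upstream in 12, in an exon in 5 and at a promoter in 2. In the early list these numbers were 38, 9, 4 and 8. Within the late list, peaks over members had a median pileup of 42.4 at promoters and 54.3 in introns. Within the early list the order was the reverse, at 33.0 and 26.8. Of the member peaks in the top 1% of the late list by pileup, all 21 were intronic, and they fell in 13 members. This group is 1.18% of the late rows over members, close to the 1% that defines it. Locations of peaks, and pileups by location, were not counted over all genes, so whether members differ in them was not tested.

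Sema5b held the highest late pileup of any member, 443.7 with a fold of 18.1, in an intron 2.49 kb from the 5′ end, although its promoter was early only. Efna5, also early only at its promoter, followed with 400.9 in an intron 95.02 kb from the 5′ end. The vascular members were led by Robo1 at 357.5, with a fold of 27.1, in an intron 548.6 kb from the 5′ end, where the early list had no row. Among the other vascular members Epha4 reached 345.4, Slit3 332.2, Sema3a 317.1, Robo2 311.5, Plxna2 307 and Slit2 284. The highest late peak of Efnb2 was 238 bp wide, 33.1 kb into the gene, with a pileup of 276.3 and a fold of 21.96. Epha2 had the lowest maximum of the vascular members, 55.7. A long gene has more rows and so more chances of a high one, and pileup is not scaled to depth, so these values rank peaks within the late list only.

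Early pileups over members were likewise ranked within their own list only. The highest was 62.0, the tandem array in an intron of Ntn4 86.6 kb from the 5′ end. The late list had no row there, and the array also touches an exon of the antisense noncoding gene Gm15963. Epha3 followed with 60.7, in an intronic peak of which 98.6% is marked as repeat, and then Sema3b (56.6, upstream), Plxnb1 (54.7, in an exon) and Sema4d (54.1, in an intron). Peaks with a fold over 4 were 2 of the 2865 early rows over members and 911 of the 1774 late rows (51.4%). Over all genes the shares were 0.104% and 48.7%.

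Genes that work with these receptors were described the same way. Of 45 listed co-receptors, co-ligands and effectors, such as neuropilins, collapsin response mediators and Srgaps, 34 had promoter peaks at both stages and 11 were early only, with none late only or without a peak. These were 75.6% and 24.4%, against 65.7% and 28.4% of all genes. Their median span was 109.9 kb, against 17.6 kb over all genes. Among all genes of at least 50 kb the shares were 75.4% and 21.3%, so the listed genes lay near that background. Their median log2 relative coverage was 0.11, against 0.062 over all genes, with 31 of 45 (68.9%) above 0, against 54.4%. At the ends were Mical1, an actin-oxidising effector of semaphorin signalling (1.49), Rgma, a ligand of neogenin (0.93), Nck2, an adaptor (-0.51), and Flrt2, a ligand of Unc5 receptors (-1.12).

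Promoters of the members were rich in GC and in GC boxes, a feature the choice by symbol did not use. The start windows had a median GC content of 58.3%, against 51.4% over all genes, and 54.2% of members had an observed over expected CpG ratio over 0.6, against 35.0%. Among genes of at least 50 kb these shares were 61.3% and 52.5%, and among shorter ones 46.4% and 29.8%. The GC box GGGCGG, a word of Sp and KLF factors, was in the 200 bases upstream of the 5′ end in 41 of 59 members (69.5%), against 38.0% of all genes. In windows with a CpG ratio over 0.6 the shares were 71.9% of 32 members and 63.5% of all genes. In those with 0.6 or less they were 66.7% of 27 members and 24.3% of all genes. In this lower class the median CpG ratio was 0.50 for members and 0.28 for all genes. Median GC content there was 55.5% and 48.5%. The split therefore did not match base composition, and whether GC boxes exceed what composition gives was not tested. The KLF word CCACCC was in 26 members (44.1%, all genes 25.2%), and the NFY word CCAAT in 12 (20.3%, all genes 31.2%). The ETS word CCGGAAG was in 2 members, Ephb6 and Plxnb1 (3.39%, all genes 7.57%), and the FOX word TGTTTAC in none (all genes 2.05%). A match describes letters in this window and shows no binding.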

How the data were processed

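Peak lists of 2 pools of ATAC-seq libraries were used, 1 for early G1 (3 libraries) and 1 for late G1 (4 libraries), grouped by sample title. The submitters' processing notes name Trimmomatic, STAR, bedtools, MACS2 and the build mm10. Broad peaks were called with MACS2 2.2.7.1 without a control and with all duplicates kept, at q-values of 0.05 and 0.1, per the file headers. The deposited pileup is a signal not scaled to depth, the lowest value listed being 19 in both lists. The deposited fold is the ratio of pileup to local background. The deposited -log10 q-value ranked peaks; its heading was damaged and it was identified by column order. Broad calling joins neighbouring regions and kept duplicates can raise a pileup.

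Peak positions were taken as counted from 1 and read against GRCm38, the same build as mm10, with GENCODE M21 and the RefSeq copy of the assembly. A promoter peak overlapped by at least 1 bp the window within 1 kb of a protein-coding start site. Counts were set beside those over all 20807 autosomal protein-coding genes; with pooled lists there was no test and no p-value. Members, lists and rules were chosen with earlier results of these data known. Values in full were given for 24 vascular members, and for others by promoter state and by the 5 highest and lowest ratios; further members were named after their values were seen. The motif words, searched exactly on both strands and free to overlap, were CCGGAAG (ETS), GGGCGG (GC box), CCACCC (KLF), TGANTCA (AP-1), AACAAT (SOX), AGATAA (the GATA family), GTGGGAA (RBPJ), CCAAT (NFY), TGTTTAC (FOX), GGAATG (TEAD), CACGTG (E-box) and those of E2F, YY1, CTCF, NRF1 and REST. In all upstream stretches the words shown in capitals above were held by 38.0% (GC box), 25.2% (KLF), 9.08% (TEAD), 31.2% (NFY) and 1.98% (CTCF), and in central 300 bases of late rows the shares were 16.1% (TEAD), 39.6% (NFY) and 17.5% (GATA). Interval counting was tested on simulated data, with 0 wrong in 4000 windows. Python 3.11.15, NumPy 2.4.6, pandas 2.3.3 and matplotlib 3.10.9 were used. The result of 1 marker list is not reported here.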

Additional observations from a re-analysis of the deposited data

How the results depend on the processing

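Settings that shortened or reshaped the lists changed the promoter counts most, by the setting's own construction of fewer or narrower peaks. Promoter peaks in both lists (43 members as reported) were 19 with the better-scored 50% of each list (32.2%, all genes 23.1%), 16 with equal numbers of the strongest peaks (27.1%, all genes 16.8%), 23 of 31 among genes of at least 50 kb and 27 with the early list cut to the bases of the late list, a setting chosen after seeing the data. Early-only members (16) were 27, 15, 8 and 4 under these settings, and 5 with promoters within 3 kb. These were 45.8%, 25.4%, 25.8%, 6.78% and 8.47% of members, against 44.6%, 30.7%, 21.3%, 11.9% and 11.6% of all genes. Late-only members (0) were 2, 5, 0 and 16, then 1 with promoters within 500 bp and 2 with the 5′ end only. In that order these were 3.39%, 8.47%, 0%, 27.1%, 1.69% and 3.39% of members. The shares over all genes were 8.89%, 15.2%, 1.78%, 32.9%, 4.48% and 3.93%. Members with no peak (0) were 11, 23, 0 and 12, then 2 and 1. In that order these were 18.6%, 39.0%, 0%, 20.3%, 3.39% and 1.69% of members. The shares over all genes were 23.4%, 37.3%, 1.59%, 19.7%, 7.48% and 4.92%. Joining rows within 1 kb changed none of these counts. Median coverage in the early list (48.5%) was 26.5% with the better-scored 50%, 14.3% with equal numbers, 50.4% with joined rows, 48.6% for the gene body only and 47.6% with 50 kb upstream. In the late list (16.0%) it was 7.44% under both score settings, 16.7% for the gene body and 15.6% with 50 kb upstream. The median log2 relative coverage (0.056) turned to -0.013 with the better-scored 50%, where all genes had -0.010, and the cause was not tested. It was 0.12 with equal numbers, 0.051 with joined rows, 0.071 for the gene body, 0.095 with 50 kb upstream and 0.049 with the cut early list. Members above 0 numbered 29 to 33 under every setting tried. No paired analysis was possible because each group is 1 pooled list, and for the same reason no library could be left out.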

Other observations

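Late peaks over the guidance genes lay partly inside early peaks. Of the bases covered by late rows, a median of 49.3% over the 59 members lay in early rows, against 51.0% over 20538 genes with late coverage. This was above the gene's own early coverage in 35 of 59 members and in 62.8% of those genes. The extremes were Efna2, where none of the late-covered bases lay in early rows, and Efnb3, with 76.6%. At Efnb2 the value was 27.0% where early rows covered 52.7% of its region, and at Plxnd1 it was 49.1% where they covered 58.6%.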
